A study of Mus musculus with 12 samples.

Results

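Ileal immune gene expression was compared between 3 colonized mice that had been given tylosin (SPF PAT) and 3 untreated germ-free mice (GF control), and was read for which genes kept a response to microbes and which stood at the germ-free level. These 6 of the 12 mice in the series were taken by their group labels, and all 556 genes with a value were tested. Germ-free (GF) mice are raised without any microbes, whereas specific pathogen-free (SPF) mice carry a gut microbiota. PAT stands for pulsed antibiotic treatment, here a single early-life course of tylosin, a macrolide antibiotic, in autoclaved drinking water during nursing. The remaining mice were 3 untreated colonized mice (SPF control) and 3 germ-free mice given the same drug (GF PAT). All 12 were male C57BL/6 mice sampled at week 7, long after the course had ended. The SPF litters were bred from purchased mice and the GF mice came from an in-house colony. SPF PAT and GF control mice thus differed in microbes, drug and colony of origin, and these cannot be told apart in this comparison. The labels do not tie mice to litters or cages, so p-values measure only the spread between these mice.

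RNA of the terminal ileum was measured with the NanoString nCounter mouse immunology panel, in which a barcoded probe per gene is counted without amplification. Values are given as log2 normalized counts, so that a difference of 1 is a 2-fold change. The total count was 600308 to 671692 in the SPF PAT mice and 626329 to 681370 in the GF control mice, and 4 to 8 genes had no count in a given mouse. Epithelial markers of the tissue (Pigr, Itln1 and Ccl25) were high in all 6 mice, with at least 17329 counts for each of the 3 genes. In a piece of whole tissue, fewer cells of a type and less RNA per cell cannot be told apart.

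The small intestine of a colonized animal holds IgA-secreting plasma cells, intraepithelial lymphocytes with cytotoxic granules and epithelial cells that release antimicrobial proteins, and contact with microbes stimulates all of these. In germ-free animals the plasma cell and lymphocyte compartments stay small, and the ileal epithelium makes little serum amyloid A. Microbial signals also reach epithelial metabolism, among others through the circadian transcription factor Nfil3.

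Most of the panel lay close to the germ-free level in the tylosin-exposed colonized mice, and a small group of lymphocyte, plasma cell and epithelial genes stood apart from it. Tested with limma and Benjamini-Hochberg adjustment over the 556 genes, 12 genes passed an adjusted p of 0.05, which is 2.16% of the genes tested. Of these, 8 genes (1.44%) were higher and 4 (0.719%) were lower in the SPF PAT mice. The genes that rose were Tnfrsf17, Bst1, Tigit, Gzmb, Irf4, Nfil3, Pla2g2a and Lcp2, and those that fell were Mme, Abcb1a, Fkbp5 and Phlpp2. In each of the 12 genes the 3 SPF PAT mice did not overlap the 3 GF control mice, against 77 genes (13.8%) of the whole panel. The 12 were chosen on the difference between these same mice, so their lack of overlap adds no evidence. In an exact permutation test a full separation of 3 from 3 mice has a two-sided p of 0.1, so the panel share is not far from that level. At an unadjusted p under 0.05 the comparison held 61 genes (11% of those tested). The median difference over all genes was 0.01, and the median 95% half-width of a gene's interval was 0.53. For 339 genes (61%) the 95% interval lay wholly within 2-fold of the GF control mean, while a difference of 2-fold or more was measured for 21 genes, 13 higher and 8 lower.

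Plasma cell genes held the largest difference. Tnfrsf17 encodes BCMA, the receptor through which plasma cells take up survival signals. Its values were 6.29, 6.61 and 5.61 in SPF PAT mice 27, 26 and 21, and 4.52, 4.18 and 4.61 in GF control mice 39, 38 and 37, the order of mice used throughout. The groups were well apart, and the 3 SPF control mice were higher again at 6.73 to 7.48. The difference was 1.74 (95% interval 1.0 to 2.47, adjusted p = 0.0236 in limma), a 3.33-fold rise. Irf4, a transcription factor required for plasma cell differentiation and for activated T cells, stood at 7.18, 7.17 and 7.27 against 5.75, 5.55 and 6.65. The SPF PAT mice were almost equal to each other and above every GF control mouse, although the highest GF PAT mouse (7.23) reached their range. Irf4 rose by 1.22 (adjusted p = 0.0395). Of the 7 plasma cell regulators measured, these 2 passed and 5 did not, where 2.16% of all genes passed. The list was written with earlier results of these data known, so this count is no independent evidence. Its median difference was 0.17 against 0.01 over all genes. Its lowest member was Prdm1, which encodes the plasma cell regulator Blimp-1, at -0.32 (95% interval -0.78 to 0.15).

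Also higher were 3 lymphocyte genes. Tigit, an inhibitory receptor of T and NK cells, measured 4.66, 5.28 and 4.87 in SPF PAT mice and 3.17, 3.59 and 3.48 in GF control mice. All 3 SPF PAT mice lay above all 6 germ-free mice and below all 3 SPF control mice (5.46 to 5.77). The rise was 1.52 (95% interval 1.10 to 1.94), with the smallest adjusted p of the comparison (0.00691). The counts behind it were low, 9 to 33 per mouse over the 6 mice. Gzmb encodes granzyme B, a protease of cytotoxic granules. It measured 5.94, 6.15 and 6.58 against 4.70, 5.08 and 4.93, and the SPF PAT mice were again clear of every germ-free mouse. Gzmb rose by 1.32 (adjusted p = 0.0236), yet the SPF control mice at 8.15 to 8.78 were further above the SPF PAT mice, which were 2.16 lower than them (adjusted p = 0.00082, in a comparison where 26.3% of the genes passed). Lcp2 encodes SLP-76, an adaptor that relays the T cell receptor signal and also acts in other blood cells. Its values of 5.39, 5.24 and 5.30 were above all 9 other mice, which ranged from 4.42 to 5.08, and the difference from GF control was 0.77 (adjusted p = 0.0196).

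No other gene of the same lists passed. Of 18 cytotoxic lymphocyte genes only Gzmb passed, and the list's median difference was 0.24. Of 19 genes of the T cell receptor complex and its proximal signalling only Lcp2 passed (median 0.27), and of 13 co-inhibitory and co-stimulatory receptors only Tigit passed (median 0.29). Over all 556 genes 2.16% passed. In these 3 lists 14, 15 and 12 genes had a difference above 0, where 288 of all 556 genes did. None of the 17 genes of the Th17 and ILC3 axis passed (median 0.22), and none of the 15 transcription factors of T helper and regulatory cells did (median 0.03). Il17a, the defining cytokine of Th17 cells, differed by 0.30 (95% interval -0.51 to 1.11) on only 4 to 10 counts per mouse. Cd8a differed by 0.33 (-0.42 to 1.08), Cd4 by -0.01 (-0.70 to 0.67), Foxp3 by -0.26 (-1.11 to 0.60), Ifng by -0.09 (-1.11 to 0.94) and the pan-leukocyte gene Ptprc by 0.12 (-0.98 to 1.22). The intervals of Il17a, Cd8a and Ptprc do not exclude a 2-fold rise, and those of Foxp3 and Ifng do not exclude a 2-fold fall.

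The epithelial and secreted genes that passed moved both ways. Bst1 encodes CD157, a surface enzyme of NAD metabolism found on Paneth cells and on myeloid and stromal cells. Its values were 10.65, 10.35 and 10.76 in SPF PAT mice and 8.60, 9.03 and 9.48 in GF control mice. No other mouse of the series reached the SPF PAT range, since the SPF control mice stood at 8.59 to 9.04 and the GF PAT mice at 8.84 to 9.64. Bst1 was 1.55 higher than in GF control mice (adjusted p = 0.0230) and 1.77 higher than in SPF control mice (adjusted p = 0.00242), while SPF control minus GF control was -0.23 (adjusted p = 0.488, where 42.1% of the genes passed). These 3 differences share mice. Pla2g2a, the gene of a secreted phospholipase, measured 10.30, 10.58 and 9.86 against 9.40, 9.50 and 9.34, a rise of 0.84 (adjusted p = 0.0395 in limma). Only RNA was measured, so these values do not show whether active enzyme was made. Pla2g2a was the only one of the 12 genes in which SPF PAT mice overlapped the SPF control mice (9.92 to 10.16).

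Mme encodes neprilysin, a peptidase of the brush border. It measured 11.31, 10.80 and 10.97 in SPF PAT mice and 11.86, 12.40 and 12.31 in GF control mice, and fell by 1.17 (adjusted p = 0.0230). The SPF PAT mice lay below every germ-free mouse and above every SPF control mouse (9.53 to 10.15). Phlpp2, a phosphatase that acts on Akt, behaved alike at 10.67, 10.71 and 10.68 against 11.20, 11.57 and 11.35 and fell by 0.69 (adjusted p = 0.0395). Among the 5 cell-surface ectoenzymes measured, Bst1 was higher, Mme was lower and 3 did not pass, where 2.16% of all genes passed. This list too was written with earlier results of these data known, so its count is no independent evidence.

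Of the 7 glucocorticoid, circadian and transporter genes measured, 1 was higher and 2 were lower, where 2.16% of all genes passed. The list was put together with earlier results of these data known, so this count is no independent evidence about it. Its median difference was -0.84. Nfil3, a transcriptional repressor of circadian output that is also needed for innate lymphoid cells and for lipid uptake in the gut epithelium, measured 8.59, 8.91 and 8.68 against 7.41, 7.74 and 7.84. It was above all 6 germ-free mice and rose by 1.06 (adjusted p = 0.0230). Abcb1a encodes P-glycoprotein, the efflux pump of the enterocyte surface. It measured 14.35, 13.91 and 13.72 against 14.88, 15.34 and 14.92, below all 6 germ-free mice, and fell by 1.05 (adjusted p = 0.0230). Fkbp5, a glucocorticoid-induced co-chaperone of the glucocorticoid receptor, measured 8.67, 8.88 and 8.95 against 9.53, 9.86 and 9.65. It fell by 0.84 (adjusted p = 0.0230), but the GF PAT mice, at 8.62 to 8.94, overlapped the SPF PAT mice. Tfrc, the transferrin receptor, had the lowest difference of the list and of the whole panel at -1.20 (95% interval -1.86 to -0.53), and with an adjusted p of 0.0997 it did not pass.

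Promoters of the 3 genes of this list that passed are shown as examples of the sequences in front of genes that rose and fell. They are the RefSeq sequences of the GRCm38.p6 assembly, 250 bases before to 50 after the transcription start. Capitals mark matches on either strand to the CCAAT box (its 5 letters), the E-box CACGTG or the glucocorticoid receptor half-site AGAACA, the motifs found in these 3 promoters among the 6 searched.
Nfil3, chr13:52980990-52981289, minus strand: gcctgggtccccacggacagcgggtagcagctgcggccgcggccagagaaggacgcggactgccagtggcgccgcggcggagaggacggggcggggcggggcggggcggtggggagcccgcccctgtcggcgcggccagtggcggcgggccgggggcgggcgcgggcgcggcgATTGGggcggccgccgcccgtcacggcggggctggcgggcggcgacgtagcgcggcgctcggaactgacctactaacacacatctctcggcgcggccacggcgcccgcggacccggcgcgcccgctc
Abcb1a, chr5:8566841-8567140, plus strand: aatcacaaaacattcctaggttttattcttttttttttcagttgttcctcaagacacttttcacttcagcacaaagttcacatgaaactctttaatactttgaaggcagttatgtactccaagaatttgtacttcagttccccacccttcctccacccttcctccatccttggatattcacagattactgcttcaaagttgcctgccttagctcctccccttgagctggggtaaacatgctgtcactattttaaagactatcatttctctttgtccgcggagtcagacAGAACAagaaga
Fkbp5, chr17:28486100-28486399, minus strand: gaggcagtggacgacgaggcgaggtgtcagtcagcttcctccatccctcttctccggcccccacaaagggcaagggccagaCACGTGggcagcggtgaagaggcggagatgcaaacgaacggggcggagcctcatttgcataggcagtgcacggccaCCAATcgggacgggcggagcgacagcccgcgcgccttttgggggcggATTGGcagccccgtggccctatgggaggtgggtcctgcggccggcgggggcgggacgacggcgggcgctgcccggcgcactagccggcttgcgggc
The Nfil3 and Fkbp5 promoters are rich in G and C, at 81.7% and 70.7%, and the Abcb1a promoter is not, at 40.3%, where the median of 27025 mouse promoters of this length was 52.7%. The promoter of Nfil3 held a CCAAT box, that of Abcb1a an AGAACA half-site after the start, and that of Fkbp5 a pair of CCAAT boxes and an E-box. Of the 12 genes past the threshold 10 had a listed promoter, and 2 of these held AGAACA (Abcb1a and Lcp2) against 19.0% of all promoters. TATAAA was in 2 of the 10 (Irf4 and Tnfrsf17) against 14.2%, CCAAT in 3 (Nfil3, Fkbp5 and Phlpp2) against 37.9% and CACGTG in 1 (Fkbp5) against 7.24%. The D-box TTATGTAA, the motif class that the Nfil3 protein binds, was in none of the 10 and in 0.955% of all promoters. The AP-1 site TGANTCA was in 1 of the 10 (Gzmb) against 7.93%. No 2 of these motifs share letters in the promoters shown.

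**Figure D1:**
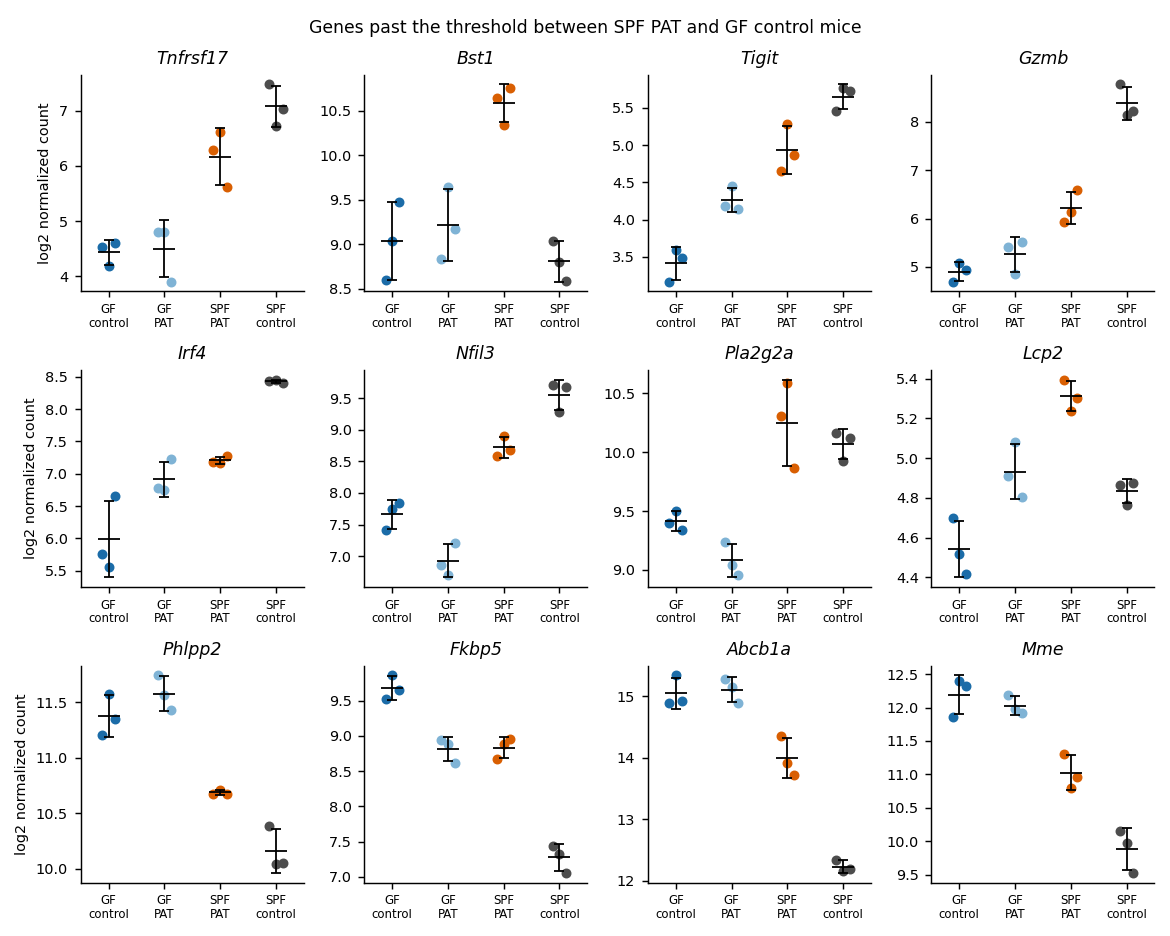
Log2 normalized counts of the 12 genes past the threshold, 1 panel per gene with its own axis that does not start at 0. Each point is 1 mouse and the bars are the mean and SD of 3 mice. SPF PAT and GF control points do not overlap in any panel, and in Bst1 and Lcp2 the SPF PAT points lie above all 9 other mice.

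Set against both other extremes, 10 of the 12 genes had SPF PAT mice apart from all 6 germ-free mice, the exceptions being Irf4 and Fkbp5, which overlapped the GF PAT mice. In 7 of these 10 (Tnfrsf17, Tigit, Gzmb, Nfil3, Mme, Abcb1a and Phlpp2) the SPF PAT mice stood between the germ-free and the SPF control mice without touching either. Bst1 and Lcp2 were above every other mouse. Over the panel, 36 genes (6.47%) had SPF PAT mice apart from all 6 germ-free mice, 19 above (3.42%) and 17 below (3.06%). The GF control mice, on which the 12 genes were chosen, are among these 6, so the 10 of 12 is no independent evidence.

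Which genes count as microbe-responsive was decided in the other 6 mice, so that the differences of the 2 steps share no animal. SPF control minus GF PAT mice were fitted alone with limma, and 143 genes (25.7% of those tested) passed, 79 higher (14.2%) and 64 lower (11.5%) in the colonized mice. That comparison also differs in drug, since the germ-free mice in it were treated, and in colony of origin. These cannot be told apart from microbes in it, so the name microbe-responsive is a label only. Each of the 143 genes was then read in SPF PAT against GF control mice. A gene was called kept where it passed in the same direction, germ-free-like where its 95% interval lay within 2-fold of GF control, and unresolved otherwise. The intervals and adjusted p-values came from the limma model of all 12 mice, so their spread drew in part on the mice that chose the set. With only the 2 compared groups fitted, 0 genes were kept, 82 were germ-free-like and 61 unresolved.

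A microbial response was kept in 10 of the 143 genes (6.99%), where 2.16% of all 556 genes passed in either direction. The genes that kept it were 6 of the 79 rising and 4 of the 64 falling genes. They are all of the 12 genes above except Bst1 and Lcp2. With both germ-free groups as reference 7 were kept, since Irf4 (0.76, adjusted p = 0.434), Fkbp5 (-0.41, adjusted p = 0.656) and Tigit (1.10, adjusted p = 0.0844) no longer passed. The germ-free mice given tylosin overlapped the SPF PAT mice for Irf4 and Fkbp5. Germ-free-like were 92 genes (64.3%), close to the 61% of all genes whose interval lay within the same margin, so that this share does not set the microbe-responsive genes apart. A further 41 were unresolved and none passed in the opposite direction. The 2-fold margin says little where the response itself is under 2-fold, as it is for 78 of the 143 genes, 71 of which were germ-free-like. Among the 65 genes with a response of 2-fold or more, 9 were kept, 21 were germ-free-like and 35 unresolved. Of those 65, 50 rose and 15 fell, and 5 of the former and 4 of the latter were kept.

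The set as a whole leaned towards the colonized side. The median difference of SPF PAT from GF control was 0.37 for the 79 rising genes, whose median response was 1.25, and -0.23 for the 64 falling genes, whose median response was -0.80. The sign of the response was shared by 66 of the 79 and 60 of the 64, against 402 of all 556 genes (72.3%). Over the 556 genes, which cannot stand as replicates, the 2 differences correlated with Pearson's r = 0.57 and Spearman's rho = 0.57. Over the 445 genes with a mean normalized count of 20 or more, r was 0.66. Both differences set SPF against GF mice and so share the colony of origin, whose part in this was not tested. SPF PAT mice lay above all 6 germ-free mice in 10 of the 79 rising genes and below them in 12 of the 64 falling genes, never on the opposite side, against 9 above and 5 below among the 413 genes outside the set. These 6 mice include the GF PAT mice that chose the set, which favours the same side. The counts are therefore no independent evidence.

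**Figure D2:**
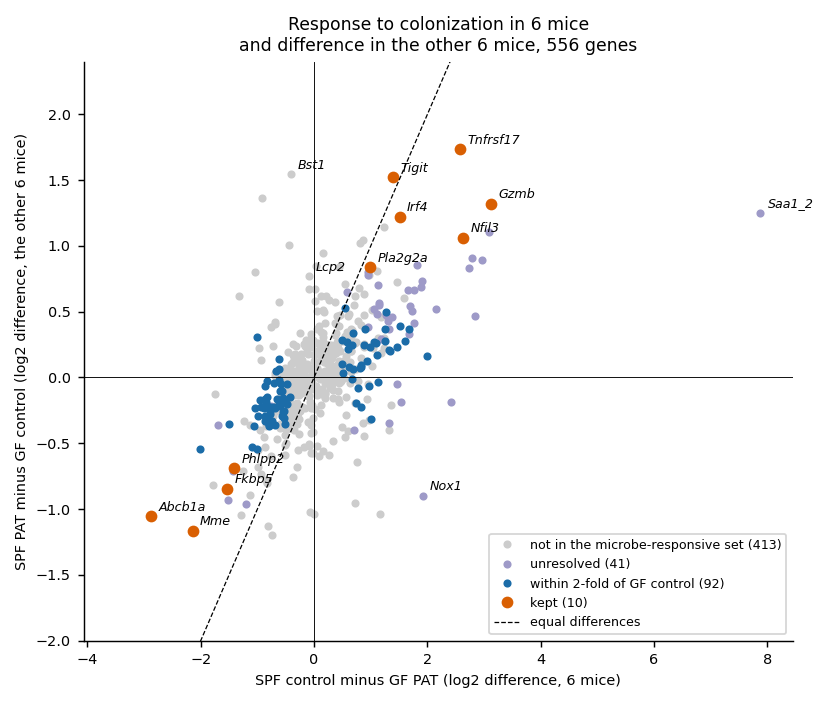
Log2 difference of SPF control minus GF PAT (horizontal) and of SPF PAT minus GF control (vertical) for 556 genes. The 2 axes use different mice. Orange points are the 10 genes that kept the response, blue points the 92 within 2-fold of GF control, purple points the 41 unresolved genes and grey points the 413 genes outside the set, and the dashed line marks equal differences.

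The largest responders show how far the SPF PAT mice reached. Saa1_2, 1 probe for the serum amyloid A genes Saa1 and Saa2, had the largest response at 7.88. Its values were 8.98, 10.35 and 8.16 in SPF PAT mice and 7.77, 7.81 and 8.15 in GF control mice, beside 13.57 to 14.75 in SPF control and 5.95 to 6.71 in GF PAT mice. Mouse 21 was level with the highest GF control mouse, and mouse 26 was more than 2 units above it. The difference of 1.25 (95% interval 0.11 to 2.39, adjusted p = 0.419) was unresolved. Nos2, the inducible nitric oxide synthase, measured 8.46, 8.69 and 7.56 against 6.85, 7.37 and 7.16. The groups did not overlap, but the difference of 1.11 (0.37 to 1.84) had an adjusted p of 0.195 and was unresolved, beside a response of 3.08. The T cell chemokine Ccl5 differed by 0.91 (adjusted p = 0.248) and the complement inhibitor Cfi by 0.89 (adjusted p = 0.551), beside responses of 2.79 and 2.96. Il22, the cytokine that drives epithelial defence, had 2, 2 and 3 counts in SPF PAT mice, 3, 0 and 2 in GF control mice and 9 to 13 in SPF control mice, too few for a fold change in this comparison. With Gzmb, which was kept, these were the 6 genes with the largest rise.

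Of the 6 genes with the largest fall, Abcb1a, Mme and Fkbp5 were kept. Tnfsf15, the cytokine TL1A, measured 6.57, 6.67 and 5.93 against 7.13, 6.74 and 6.93. Its interval of -0.96 to -0.13 around -0.54 lay within 2-fold of GF control, beside a response of -2.01. The chemokine Cxcl11 differed by -0.36 (-1.01 to 0.28) and the nuclear receptor Pparg by -0.94 (-1.66 to -0.22), and both were unresolved.

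Antigen presentation and interferon-linked genes were among the 37 rising genes that were germ-free-like. The 5 of these with the largest response were Cxcl9, H2-Aa, Cd7, Tap1 and Psmb9. The T cell chemokine Cxcl9 measured 6.60, 7.38 and 7.55 against 7.28, 6.73 and 7.03, with SPF control mice at 8.43 to 9.10. The SPF PAT and GF control mice overlapped, and the difference was 0.16 (-0.45 to 0.77), beside a response of 2.0. H2-Aa, a chain of the class II molecule that presents peptide to CD4 T cells, measured 12.92, 13.08 and 13.77 against 12.87, 12.52 and 13.28. SPF control mice at 14.74 to 15.04 were clear of both groups, and the difference of 0.37 (-0.23 to 0.97) stood beside a response of 1.68. Cd7, a T and NK cell antigen, differed by 0.28. Tap1, the peptide transporter of class I presentation, differed by 0.39 and the immunoproteasome subunit Psmb9 by 0.23, beside responses of 1.52 and 1.46.

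By list, none of the 11 class II genes passed (median 0.22). Of the 6 that were in the microbe-responsive set, 3 were germ-free-like and 3 unresolved. None of the 14 class I and proteasome genes passed (median -0.22), nor did any of the 20 interferon-stimulated genes (median -0.06). Of the 10 interferon-stimulated genes in the set, 9 were germ-free-like. Of the 17 Toll-like receptors and adaptors and the 17 genes of the NF-kB pathway none passed, with medians of -0.10 in both, and their 5 and 7 genes in the set were germ-free-like. The 9 TGF-beta ligands, receptors and Smads lay within 2-fold of GF control, including the 4 of the set. These counts stand beside the 61% of all genes within that margin.

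Among the falling genes the 5 germ-free-like ones with the largest response were Tnfsf15, Il15, Dpp4, Maf and Lif. Il15, a cytokine that maintains intraepithelial lymphocytes, measured 8.26, 8.21 and 7.93 against 8.40, 8.58 and 8.49. All SPF PAT mice were below all GF control mice, yet the difference of -0.36 (-0.65 to -0.06) was small beside the response of -1.51 and did not pass (adjusted p = 0.301). The brush border peptidase Dpp4 was alike, at 13.82, 13.65 and 13.55 against 13.98, 14.41 and 14.21 and a difference of -0.52 (-0.87 to -0.18, adjusted p = 0.195). The transcription factor Maf differed by -0.37 and the cytokine Lif by -0.23.

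Of the 17 epithelial defence genes none passed (median 0.12). In limma 8 had an unadjusted p under 0.05, where 11% of all genes did, in a list written with earlier results of these data known. The list spanned from Saa1_2 at 1.25 to Nox1 at -0.90. Nox1, an epithelial NADPH oxidase, was in the rising set with a response of 1.92 but measured 6.95, 6.79 and 5.67 in SPF PAT mice and 7.60, 7.63 and 6.87 in GF control mice. Mice 27 and 37 overlapped, and the difference of -0.90 (-1.69 to -0.11, adjusted p = 0.385) was unresolved. Pigr, which carries IgA across the epithelium, was germ-free-like at 0.17 (-0.36 to 0.70), beside a response of 1.11.

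The remaining lists also held no gene past the threshold in limma. They are neutrophil genes (9 genes, median 0.13), macrophage and dendritic cell markers (13 genes, 0.04), mast cell and eosinophil markers (7 genes, -0.02), complement (27 genes, 0.06), chemokines (26 genes, 0.15), chemokine receptors (19 genes, 0.04), and endothelial and stromal markers (12 genes, -0.01). At an unadjusted p under 0.05 the lists without a gene past the threshold held 0 to 4 genes each, apart from the 8 of epithelial defence. Over all genes 11% had such a p. No gene of these lists passed with Tukey's test. Nearest to the threshold in these lists were Card9, an adaptor of fungal receptors, at 1.02 (adjusted p = 0.0748), and Il1rl1, the IL-33 receptor of mast cells and innate lymphoid cells, at -1.13 (adjusted p = 0.126). For Card9 the values were 8.80, 8.49 and 8.20 against 7.23, 7.40 and 7.80, and for Il1rl1 they were 7.16 to 8.0 against 8.52 to 9.02. Neither gene overlapped between the groups. Complement ran from C3 at 0.95 (0.12 to 1.78, adjusted p = 0.385) to Cfd at -1.04, whose interval of -6.78 to 4.70 reflects values of 2.07 to 11.44 over the 12 mice.

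**Figure D3:**
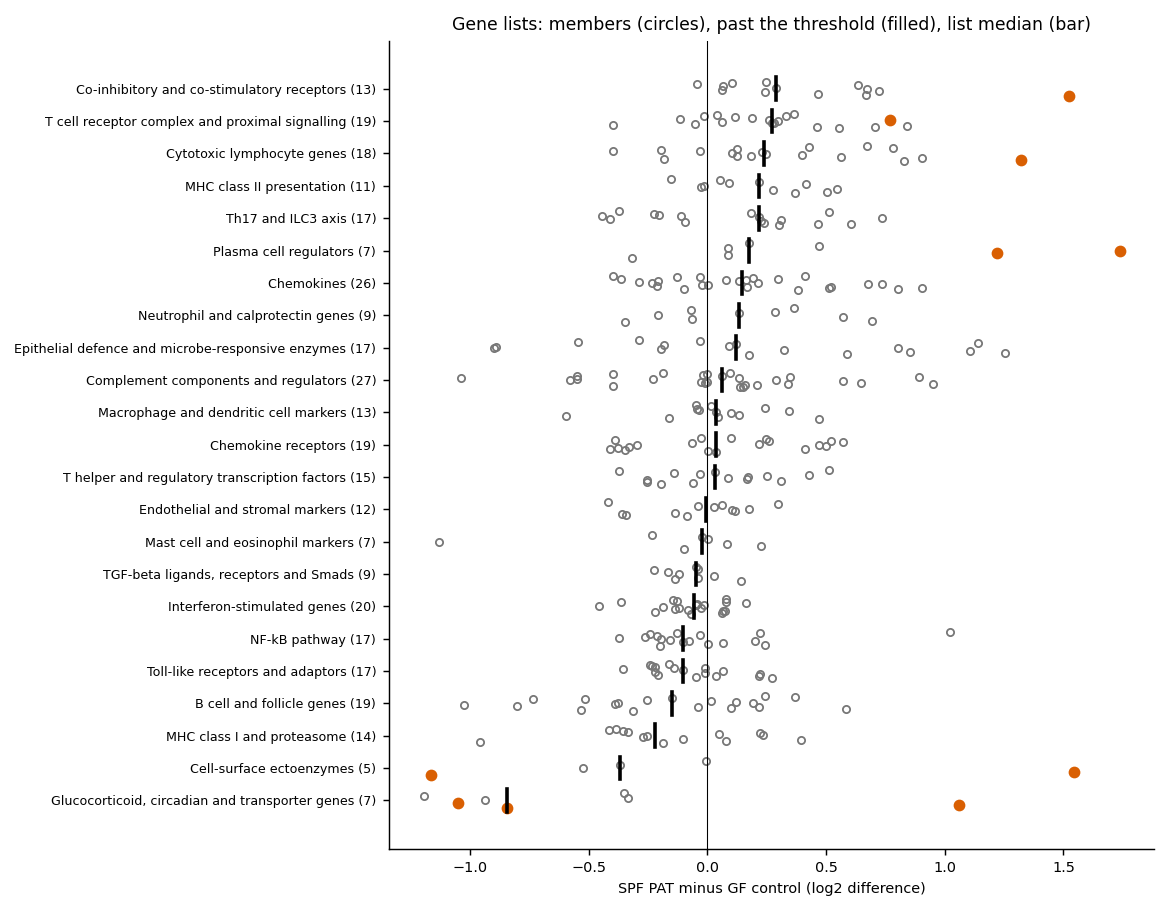
Log2 difference of SPF PAT minus GF control for the members of 23 gene lists, with the number measured in brackets. Open circles are genes that did not pass, filled orange circles the genes past an adjusted p of 0.05, and bars the list medians. The lowest median is that of the glucocorticoid, circadian and transporter genes (-0.84), and the other medians lie between -0.37 and 0.29.

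The 3 SPF PAT mice were not alike in how far they moved. Relative to the GF control mean, the 79 rising genes averaged 0.18 in mouse 27, 0.41 in mouse 26 and 0.57 in mouse 21, a group mean of 0.39 (SD 0.20). All 556 genes averaged -0.11, -0.03 and 0.24 in the same mice, so that against each mouse's panel mean the rising genes stood at 0.29, 0.45 and 0.34, and mouse 21 was no longer the furthest. The 64 falling genes averaged -0.21, -0.26 and -0.40, a group mean of -0.29 (SD 0.10), or -0.10, -0.23 and -0.64 against the panel means. The GF control mice averaged -0.05, -0.17 and 0.22 for the rising genes and -0.04, 0.16 and -0.11 for the falling genes. GF control mouse 37 was thus above SPF PAT mouse 27 for the rising genes, while all 3 SPF PAT mice were below all 3 GF control mice for the falling genes. Against the panel means this turned around, with mouse 37 at 0.13 below all SPF PAT mice for the rising genes and at -0.20 below mouse 27 for the falling genes. The number of rising genes above every GF control mouse was 25 in mouse 27, 32 in mouse 26 and 53 in mouse 21. Over all 556 genes it was 107, 124 and 203 in the same mice, so mouse 21 was also highest over the whole panel. The number of falling genes below every GF control mouse was 32, 43 and 57, where 165, 163 and 194 of all 556 genes were below.

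**Figure D4:**
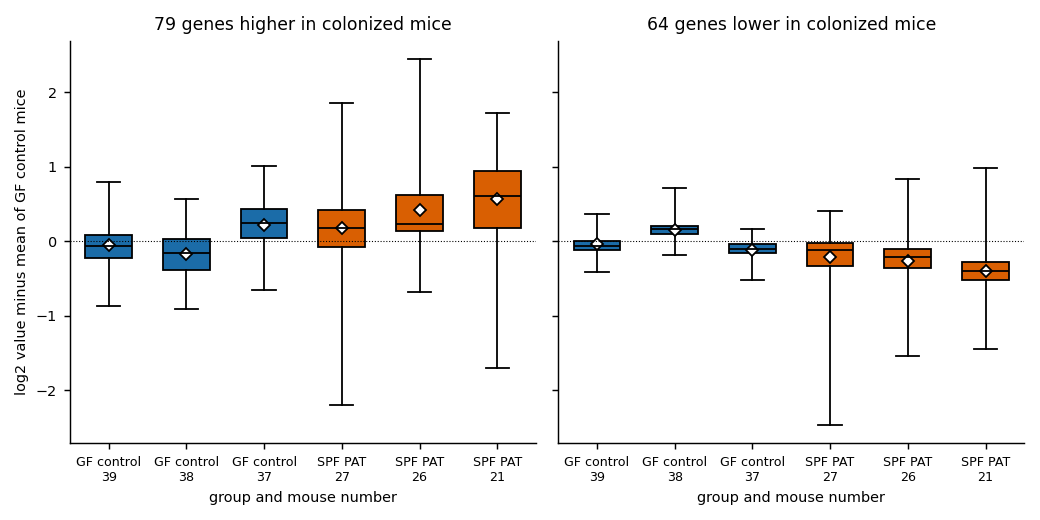
Log2 value minus the mean of the GF control mice, per mouse, for the 79 genes higher and the 64 genes lower in colonized mice. Boxes span the quartiles with the median, whiskers the full range and diamonds the mean. Mean shifts in SPF PAT mice run from 0.18 to 0.57 for rising and from -0.21 to -0.40 for falling genes, and GF control mouse 37 stands at 0.22 and -0.11.

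Lymphoid follicle content differed between mice within each group. The sum of 5 B cell and follicle markers (Ms4a1, Cd79a, Cd79b, Cr2 and Cxcl13) was 12.04 on the log2 scale in SPF PAT mouse 21 and 11.2 in GF control mouse 37, and 7.90 to 8.79 in the 4 other mice. Cr2, the complement receptor of B and follicular dendritic cells, was at 6.73 and 6.29 in these 2 mice and at 1.24 to 3.44 in the others. T cell markers moved with them, at 9.44 and 8.99 against 8.03 to 8.43. Epithelial sums were the lowest of their group in the same 2 mice, at 16.8 and 16.7 against 17.3 and 17.5 in the other SPF PAT mice and 16.9 in both other GF control mice. The sums for macrophages, mast cells, endothelium and stroma each spanned under 1 unit over the 6 mice, and none of the marker genes passed between the groups. Of 19 B cell and follicle genes none passed, with a median difference of -0.15 and a median 95% half-width of 2.58, wide against 0.53 over all genes.

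The 12 genes were recomputed with this marker sum as a covariate and, separately, without mice 21 and 37, both chosen after the values had been seen. With the covariate, and the 5 marker genes left out of the test, 19 of 551 genes passed, 11 higher and 8 lower, and all 12 were among them. The 7 further genes were Nos2, Card9 and C4bp, which were higher, and Il1rl1, Pparg, Tfrc and Map4k4, which were lower; C4bp and Map4k4 are named after their values were seen. Without mice 21 and 37 the groups held 2 mice each and 1 gene passed (Irf4), with 54 genes at an unadjusted p under 0.05. Leaving out 1 mouse at a time left 1 to 11 genes past the threshold. Tigit passed in all 12 of these, and no other gene passed in more than 9. At the low end Irf4 and Phlpp2 passed in 2 each and Pla2g2a in 1. The number of genes past the threshold was 1 without mouse 26 or 38, 2 without mouse 27, 3 without mouse 39 and 5 without mouse 21 or 37. None of the 12 genes changed direction in any of 26 alternative settings. Many of these, such as another variance estimate, another test or leaving out an SPF control or GF PAT mouse, leave the difference itself unchanged. In those settings the direction could not change.

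**Figure D5:**
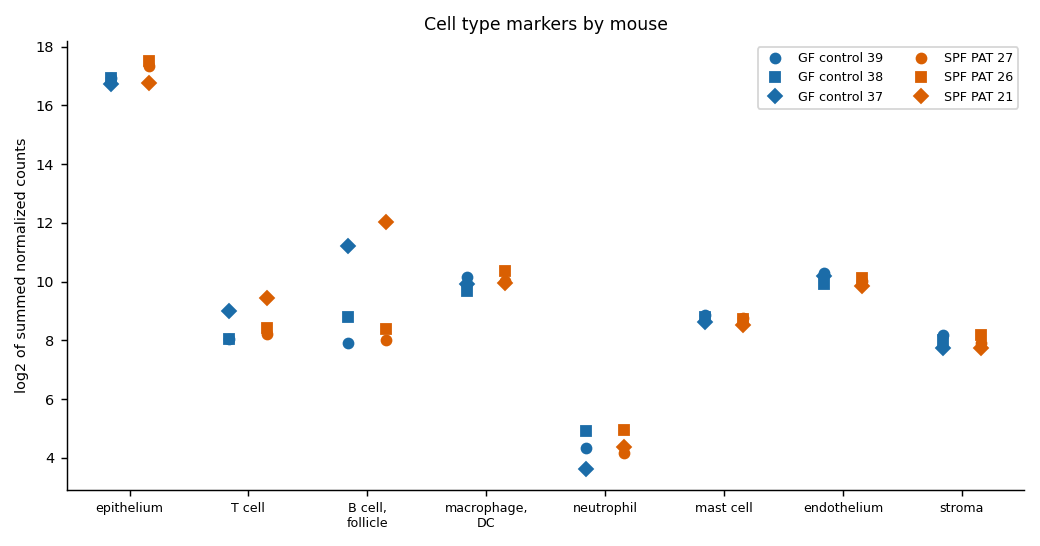
Log2 of the summed normalized counts of marker genes of 8 cell types in the 6 mice, GF control in blue and SPF PAT in orange. Diamonds are mice 37 and 21, which stand at 11.2 and 12.04 for B cell and follicle markers, where the other mice stand at 7.90 to 8.79.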

How the data were processed

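RNA was extracted from the terminal ileum and hybridised to the nCounter GX mouse immunology panel. Counting of probes involves no alignment. Per the labels and the study's methods the authors scaled counts with DESeq2 and deposited them on the log2 scale, for 556 genes in 12 mice. The 28 control and reference entries of the 584 in the table held no value. Whole counts were recovered within 0.01, with size factors that matched median-of-ratios scaling. Of the symbols, 537 matched a current RefSeq name (GRCm38.p6), 16 an older name and 3 none. The mean normalized count was under 20 for 111 genes, where precision is lowest.

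Group means were fitted by limma 3.58.1 (lmFit, eBayes, statmod 1.5.0 and R 4.3.3) in 1 model of 12 mice with 1 mean per group, no covariate and no filter, and P-values were adjusted by Benjamini-Hochberg over 556 genes with a threshold of 0.05. The study's analysis of variance with Tukey's test was run as an alternative. Total counts did not differ beyond the spread between mice (exact permutation test, two-sided p = 0.3, smallest possible 0.1). The microbe-responsive set was fitted on the 6 mice outside the comparison. The steps were tested on simulated data. Alternatives changed the variance estimate, the test, the scaling, the filter, the reference mice, the set and the margin, and left out each mouse.

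Named genes are all those past the threshold, the 6 largest rises and falls of the set, the 5 largest germ-free-like genes each way, the extremes of each list and the genes of products the study measured. Some genes of this rule and of the lists are not reported here, and the B cell and follicle list and marker sum were computed without 1 such gene. The genes and lists were chosen with earlier results of these data known.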

Additional observations from a re-analysis of the deposited data

How the results depend on the processing

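The count of 12 genes past the threshold depended on the mice fitted, the scaling and the test. It was 0 in limma with only the 2 groups compared (39 genes at an unadjusted p under 0.05, smallest adjusted p 0.144). After median centring it was 0 (31 genes, smallest 0.0562). Tukey's test gave 0 under Benjamini-Yekutieli adjustment (30 genes, smallest 0.313) and 2 (Tigit and Lcp2) under Benjamini-Hochberg. Quantile normalization gave 6, namely Bst1, Tigit, Irf4, Nfil3, Abcb1a and Fkbp5. Tnfrsf17, which had the largest difference, did not pass there (adjusted p = 0.262 in limma). With the follicle marker covariate the count was 19, and without mice 21 and 37 it was 1, both chosen after seeing the data. The intensity trend, robust estimation, the filter at a mean normalized count of 20, the 2-fold requirement, log2 of the normalized count plus 1, voom on recovered counts and both germ-free groups as reference gave 8 to 12. The median of all genes moved by -0.09 under median centring and by -0.03 under quantile normalization.

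Genes that kept the response numbered 10, against 0 with only the 2 groups, 0 under median centring, 1 and 0 under Tukey's test with the respective adjustments, 5 under quantile normalization and 1 without mice 21 and 37. Germ-free-like genes numbered 92, against 42 under median centring, 45 with the set from median-centred values, 167 with the set taken against all 6 germ-free mice, 21 with the set limited to responses of 2-fold or more and 44 with a 1.5-fold margin. Unresolved genes numbered 41, against 65 and 66 under Tukey's test, 67 with the set against 6 germ-free mice, 89 with the 1.5-fold margin and 26 with the covariate. The set itself held 143 genes, against 87 under median centring, 244 against 6 germ-free mice (141 of the 143 among them) and 65 with responses of 2-fold or more, for which the falling genes averaged -0.60 in SPF PAT mice. No gene of the set passed in the opposite direction under any of these settings.

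Leaving out each mouse in turn gave 1 to 11 genes past the threshold, 1 to 8 kept, 31 to 123 germ-free-like, 25 to 59 unresolved, 0 opposite and 66 to 190 in the set. The set shrank to 69 without SPF control mouse 7, 66 without mouse 2, 84 without GF PAT mouse 43 and 80 without mouse 42. The cause of these changes was not tested. No paired analysis was possible because the mouse numbers in the labels are not shared between groups. With 3 mice per group, only differences that are large against the spread between mice could pass.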
